A study of Sus scrofa with 8 samples.

Results

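The 4 genes of the nuclear factor I family, NFIA, NFIB, NFIC and NFIX, and 2 genes of the E protein family, TCF4 and TCF12, were followed in pig H3K27ac ChIP-seq, as 6 of 16298 protein-coding genes with a symbol. The members were chosen by gene name and family, at a time when their difference in acetylated length between the cell types was already known. That contrast is therefore described for them without a test. The series holds 2 cell types. The pgEpiSC libraries came from stem cells of the pig pre-gastrulation epiblast (embryonic day 10, per the labels), and the pEF libraries came from porcine embryonic fibroblasts of day 30. Each type had 2 H3K27ac libraries, numbered 1 and 4 in pgEpiSC and 1 and 2 in pEF, each with its own input library, and no treatment or genetic change is named in the labels. Whether the paired libraries came from separate lines, animals or cultures is not stated in the labels, so p-values measure only the spread between these libraries, which may be technical.

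Nuclear factor I proteins bind DNA as dimers, and the 4 family members share a conserved DNA-binding domain. They can activate or repress genes and are known for their roles in glia, lung, muscle, tooth root and connective tissue. TCF4 and TCF12 are basic helix-loop-helix proteins that bind E-box sequences, either with each other or with tissue-specific partners such as TWIST and MyoD family factors. TCF4 here is the E protein, not the WNT effector TCF7L2, which is also often called TCF4. H3K27ac, acetylation of lysine 27 of histone H3, marks active promoters and enhancers.

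The values came from lists of islands, which are stretches where ChIP reads cluster. Each list gives the ChIP reads and the input reads inside every island, and the authors' fold over input, which is the ratio of ChIP to scaled input reads. ChIP reads inside islands numbered 29679982 to 46383051 per library, and the islands covered 408 and 414 Mb in pgEpiSC but 273 and 275 Mb in pEF. Enrichment went the other way, with a median fold of 1.80 and 1.67 in pgEpiSC and 3.47 and 3.46 in pEF. The measure used for a gene, its acetylated length, sums the kb under islands over the gene and 10 kb to either side, and a log2 difference is that of kb + 1, pgEpiSC minus pEF. The median gene differed by 0.46. By limma, 31.9% of all genes were longer in pgEpiSC and 10.9% in pEF (adjusted p under 0.05), and the libraries of the 2 types did not overlap at 52.3% and 21.9% of genes in those directions. Of the 6 epiblast markers POU5F1, SOX2, NANOG, OTX2, DNMT3B and LIN28A, 5 were higher in pgEpiSC and NANOG did not pass. Of the 6 fibroblast markers COL1A1, COL1A2, COL3A1, TWIST1, PRRX1 and THY1, 4 were higher in pEF, and PRRX1 and THY1 did not pass. With islands of at least 2-fold over input, 3 of the epiblast and 5 of the fibroblast markers passed in those directions. Bulk ChIP-seq cannot tell fewer cells with the mark from less of the mark per cell.

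The nuclear factor I family split into pairs. NFIA and NFIB were covered by longer acetylated stretches in pgEpiSC, and NFIC and NFIX in pEF. TCF4 and TCF12 carried long acetylated stretches in both types, with the strongest island at the same gene end in every library and other stretches stronger in one type or the other. The libraries of the 2 types did not overlap for any of the 6 members, with 4 longer in pgEpiSC (NFIA, NFIB, TCF4 and TCF12) and 2 longer in pEF. In the fit over all genes 3 members, namely NFIA, NFIB and TCF12, were past the threshold toward pgEpiSC and 2 toward pEF. The members were chosen with this contrast in view, so nothing is read from these counts.

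**Figure D1:**
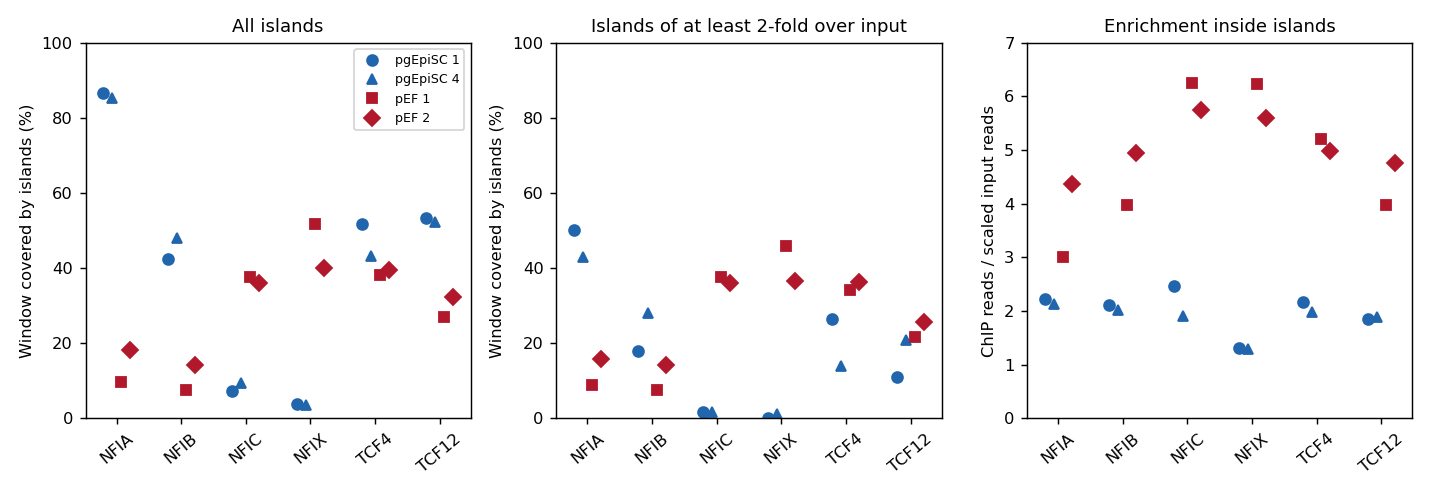
Percent of each locus window (gene and 10 kb either side) covered by all islands (left) and by islands of at least 2-fold over input (middle), and ChIP over scaled input reads summed over islands (right), with 1 point per library. NFIA reached 86.6% and 85.4% in pgEpiSC, NFIX 51.7% and 39.9% in pEF, and every pEF point on the right lies above every pgEpiSC point of the same gene.

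NFIA, which drives the switch from neuron to glia production in the neural tube, was the most extensively covered member. Islands covered 359.97 kb in pgEpiSC 1 and 354.97 kb in pgEpiSC 4, against 40 kb in pEF 1 and 75.4 kb in pEF 2. This is 86.0 ± 0.850% of the window in pgEpiSC and 13.9 ± 6.02% in pEF (SD, n = 2). Nearly the whole locus thus lay under islands in both epiblast libraries, and only scattered stretches did in the fibroblasts. The log2 difference was 2.68, above that of 91.7% of all genes, and by mean length over the 4 libraries NFIA ranked 29 of 16298. The pEF libraries differed from each other, and the difference was 3.13 without pEF 2 and 2.23 without pEF 1.

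The pgEpiSC signal at NFIA was wide, with a lower fold over input than in pEF. Set against the islands of its own library, the highest island stood above 93.55% and 94.3% of them in pgEpiSC 1 and 4. In pEF 1 and 2 it stood above 57.4% and 97.6%. A single island of 57.8 kb in pgEpiSC 1 (chromosome 6, 150821601 to 150879400) and 1 of 56.6 kb in pgEpiSC 4 spanned the lower end of the gene, at 3.39-fold and 2.78-fold over input. Gene ends are called lower and upper by coordinate, since the gene table gives no strand, and positions are those of the island lists, counted from 1, which name no genome build. The pEF islands were at most 8.40 kb long. The highest of them, 3.20 kb long and 12.96-fold over input in pEF 2 (chromosome 6, 150962601 to 150965800), lay about 129 kb inside the gene from its lower end. It lay within a longer island of each pgEpiSC library, at 3.36-fold in pgEpiSC 1 and 2.83-fold in pgEpiSC 4, and pEF 1 had 3.84-fold there. The point of highest enrichment in pEF 2 was therefore acetylated in the other libraries too. Of 17 regions at the locus, built by merging islands of the 4 libraries that overlap, 7 had an island in every library, 5 in both pgEpiSC libraries only and 1 in both pEF libraries only. Over all 101305 merged regions of the genome these classes held 20.2%, 21.9% and 17.7%. The stretches under islands in both pgEpiSC libraries and in neither pEF library summed to 255 kb, and the reverse to 2.40 kb.

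**Figure D2:**
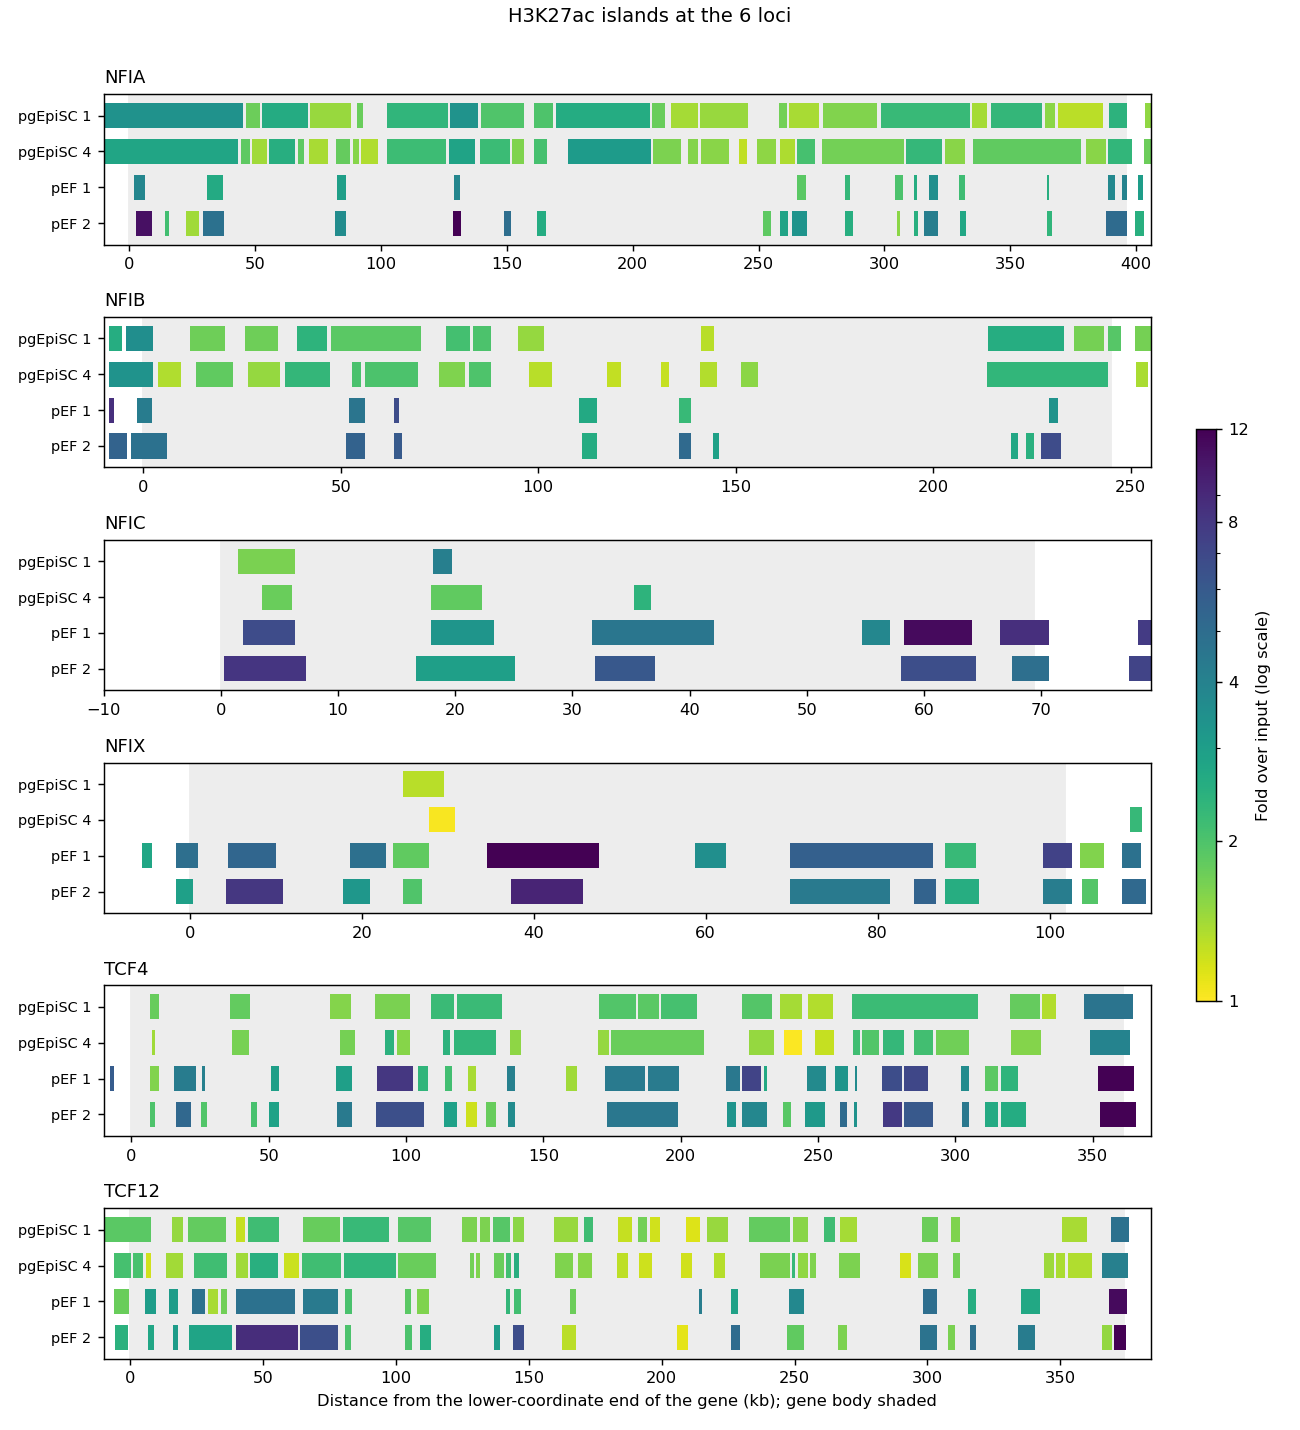
Islands of each H3K27ac library along the 6 loci, by distance in kb from the lower-coordinate end of the gene (gene body shaded), coloured by fold over input on a log scale that stops at 12. The pgEpiSC rows are nearly filled at NFIA and nearly empty at NFIX, while the pEF rows hold shorter and darker islands.

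NFIB, a regulator of lung and forebrain maturation, also had longer islands in pgEpiSC, on a smaller scale. Its islands summed to 112.5 kb in pgEpiSC 1 and 127.2 kb in pgEpiSC 4, against 20.2 kb in pEF 1 and 37.8 kb in pEF 2. These lengths gave 45.2 ± 3.92% of the window against 10.9 ± 4.69% and a log2 difference of 2.07. As at NFIA, pEF 2 had the longer islands of the pair, and the difference was 2.51 without it and 1.64 without pEF 1. Most of the coverage in pgEpiSC lay from the lower end to about 103 kb inside the gene and from 214 kb to the upper end, where pgEpiSC 4 had an island of 30.6 kb. Between these stretches pgEpiSC 1 had 1 island of 3.40 kb, at 1.30-fold, and pgEpiSC 4 had 4 islands of at most 4.2 kb, at 1.24-fold to 1.54-fold. The lower end itself was acetylated in every library, at 3.56-fold and 3.36-fold in pgEpiSC and 4.25-fold and 4.76-fold in pEF. At the upper end, within 2 kb of it, there was no island in either pEF library. Of 16 regions at NFIB, 6 were found in both pgEpiSC libraries only, 2 in both pEF libraries only and 3 in all 4, against 21.9%, 17.7% and 20.2% of all merged regions. Those in pEF only lay 110 to 139 kb inside the gene, in a stretch where pgEpiSC 1 had no island, at 2.26-fold to 5.13-fold.

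NFIC, a factor needed for tooth root formation, had the opposite pattern. Its islands covered 6.40 kb in pgEpiSC 1 and 8.40 kb in pgEpiSC 4, against 33.69 kb in pEF 1 and 32.09 kb in pEF 2. The 2 libraries of each type lay close together, at 8.28 ± 1.58% and 36.8 ± 1.27% of the window, and the log2 difference was -2.02. All pEF islands were at least 2-fold enriched, with a pooled enrichment of 5.99 ± 0.357 against 2.18 ± 0.396 in pgEpiSC. The highest was 11.2-fold in pEF 1 (chromosome 2, 75251401 to 75257200), where pEF 2 had 6.67-fold and pgEpiSC had no island. The region at the lower end of NFIC was 1 of 2 called in all 4 libraries, at 1.65-fold and 1.76-fold in pgEpiSC and 6.81-fold and 8.15-fold in pEF, with a log2 difference in ChIP reads of -2.0. The other, about 17 to 25 kb inside the gene, was the strongest NFIC island of pgEpiSC 1 (4.15-fold) but reached 1.83-fold in pgEpiSC 4.

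NFIX, which directs the fetal programme of skeletal muscle, showed the widest gap in the direction of pEF. Islands summed to 4.80 kb and 4.40 kb in pgEpiSC 1 and 4, against 63.0 kb and 48.6 kb in pEF 1 and 2. The covered share was 3.78 ± 0.232% in pgEpiSC and 45.8 ± 8.36% in pEF, and the log2 difference of -3.33 was above that of 1.41% of all genes. Few islands were thus called in the epiblast libraries at a locus that was covered over a large part of its length in fibroblasts. A pgEpiSC island was called in 2 regions inside or near the gene. One, about 24 to 31 kb inside it, was weak, at 1.31-fold and 1.02-fold in pgEpiSC and at 1.84-fold and 1.98-fold in pEF. The other, in the upper flank, was at 2.27-fold in pgEpiSC 4, above 82.1% of the islands of that library. It was absent from pgEpiSC 1 and at 4.74-fold and 5.17-fold in pEF. Of 12 regions, 8 were found in both pEF libraries only and 0 in both pgEpiSC libraries only, while over all 101305 merged regions of the genome 17.7% and 21.9% fell in these classes. Both gene ends had islands in pEF and none in pgEpiSC. The strongest island was 13.0 kb long and 13.0-fold over input in pEF 1, and 8.40 kb and 9.36-fold in pEF 2 (chromosome 2, 65989401 to 66002400 and 65992201 to 66000600), deep inside the gene. The range of folds over the pEF-only regions ran from 1.60-fold to that 13.0-fold.

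The NFIX window holds LYL1, a helix-loop-helix gene of blood cells that overlaps NFIX in the table, and TRMT1, a tRNA methyltransferase gene. Islands near the lower end of NFIX are shared with LYL1 and cannot be assigned to 1 of them. Further out the contrast faded. Between 10 and 50 kb from NFIX, islands covered 43.99 kb and 48.39 kb in pgEpiSC against 36.2 kb and 35.4 kb in pEF, and with 50 kb on either side the log2 difference was -0.83. The surroundings of NFIX were thus covered in both types. At NFIC the outer flanks ran with the gene, at 9.80 kb and 8.20 kb in pgEpiSC against 31.0 kb and 18.1 kb in pEF, and at NFIA the direction was again that of the gene, at 28.8 kb and 22.8 kb against 2.60 kb and 5.40 kb. At the E proteins the outer flanks went against the gene, with 10.6 kb and 10.2 kb in pgEpiSC against 24.8 kb and 19.6 kb in pEF at TCF4, and 24.5 kb and 19 kb against 31.6 kb and 31.0 kb at TCF12.

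TCF4, the E protein mutated in Pitt-Hopkins syndrome, was long and acetylated in both types. Islands covered 196.99 kb in pgEpiSC 1 and 164.8 kb in pgEpiSC 4, against 145.0 kb in pEF 1 and 151.0 kb in pEF 2. The groups did not overlap, but the gap between the nearest libraries was smaller than that between the 2 pgEpiSC libraries, with 181 ± 22.8 kb against 148 ± 4.24 kb and a log2 difference of 0.28. Its islands were denser in pEF, with 3.68 and 3.35 ChIP reads per kb of island and per 1000000 reads in islands, against 2.41 and 2.36 in pgEpiSC. That scaling gives a higher average density in pEF over all islands too, since they cover fewer Mb there. The pooled enrichment, ChIP over scaled input reads of all islands at the locus, was 5.09 ± 0.164 against 2.07 ± 0.129. Coverage and enrichment thus pointed in opposite directions at this gene, as they did over the libraries as a whole. Over all islands of a library, that ratio was 1.88 and 1.73 in pgEpiSC and 4.58 and 4.81 in pEF.

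The strongest TCF4 island was the same in all 4 libraries and covered the upper end of the gene. It was 18.0 kb long and 4.61-fold over input in pgEpiSC 1, 14.6 kb and 3.95-fold in pgEpiSC 4, 13.2 kb and 12.04-fold in pEF 1 (chromosome 1, 105070601 to 105083800), and 13.0 kb and 12.2-fold in pEF 2. Set against the islands of its own library it was above 98.4%, 98.2%, 95.6% and 96.9% of them in that order, so that it stood high in both types. No library had an island at the lower end. Of 24 regions 11 were called in all 4 libraries, 6 in both pEF libraries only and 1 in both pgEpiSC libraries only, against 20.2%, 17.7% and 21.9% of all merged regions. Inside the gene, adjacent stretches leaned opposite ways. Between 89 and 108 kb from the lower end, enrichment was 1.65-fold and 1.88-fold in pgEpiSC and 6.85-fold and 6.60-fold in pEF, with a log2 difference in ChIP reads of -1.87. In the next stretch, between 109 and 135 kb, it was 2.23-fold and 2.36-fold in pgEpiSC and 1.69-fold and 1.88-fold in pEF, with a log2 difference of 2.32. A region that reaches only the edge of the lower flank was also higher in pEF, at 8.59-fold and 6.17-fold against 1.75-fold and 1.40-fold.

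TCF12, the E protein gene mutated in a form of craniosynostosis, was longer in pgEpiSC and stronger in pEF. Its islands covered 209.7 kb and 206.4 kb in pgEpiSC 1 and 4, and 106.6 kb and 127.6 kb in pEF 1 and 2. The covered share was 52.8 ± 0.593% against 29.7 ± 3.77%, with a log2 difference of 0.83, and the pooled enrichment was 1.87 ± 0.0209 against 4.37 ± 0.563. As at TCF4, the strongest island covered the upper end in every library. It was 4.74-fold and 4.11-fold over input in pgEpiSC, and 11.3-fold in pEF 1 and 15.2-fold in pEF 2 (chromosome 1, 115050801 to 115057400 in pEF 1), above 94.5% to 98.9% of the islands of its own library. The lower end was less enriched than the upper end in every library. It was at 1.88-fold, 2.07-fold, 1.77-fold and 2.45-fold in pgEpiSC 1 and 4 and then pEF 1 and 2. These values were above the median fold of all islands in pgEpiSC (1.80 and 1.67) and below it in pEF (3.47 and 3.46).

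Of 29 regions at TCF12, 14 were called in all 4 libraries, 5 in both pgEpiSC libraries only and 3 in both pEF libraries only. The shares over all merged regions of the genome were 20.2%, 21.9% and 17.7%. A block between 40 and 63 kb from the lower end was stronger in pEF, at 4.73-fold and 8.77-fold against 1.94-fold and 1.92-fold, with a log2 difference in ChIP reads of -1.17. The next block, between 64 and 79 kb, had higher enrichment in pEF, at 4.37-fold and 6.62-fold against 1.77-fold and 2.15-fold. This block was not called by edgeR, at a log2 difference in reads of -0.67. Beyond it, a block between 80 and 100 kb held 17.4 kb and 19.8 kb of islands in pgEpiSC but 2.60 kb and 2.40 kb in pEF. Its enrichment was 2.25-fold and 2.37-fold against 2.05-fold and 2.03-fold, and the log2 difference in reads was 3.73. Reads were summed over each library's own islands, so a longer island brings more reads at the same enrichment. Over all members, 38 regions had an island in every library, of which edgeR called 12 higher in pgEpiSC and 4 in pEF. Among all 20498 such regions 22.7% were called higher in pgEpiSC and 23.4% in pEF. Of the 12, 6 lay at TCF12 and 4 at NFIA, and nothing is read from these counts either, since they come from the same contrast.

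**Figure D3:**
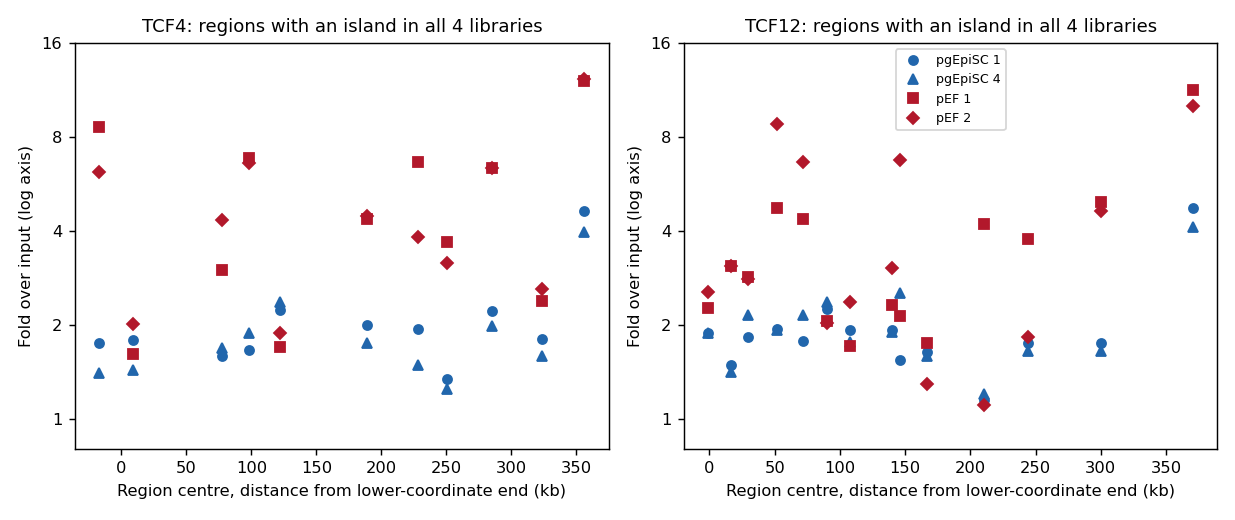
Fold over input (log axis) in each library for the 11 regions of TCF4 and the 14 of TCF12 with an island in all 4 libraries, against the distance of the region's centre from the lower-coordinate end of the gene. The region at the upper end is the highest of its gene in every library, and pEF lies below pgEpiSC between 109 and 135 kb of TCF4 and between 80 and 100 kb of TCF12.

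The order of the members differed between the types. By percent of the window covered, which sets genes of different length on 1 scale, pgEpiSC ran from NFIA through TCF12, TCF4 (47.5 ± 5.97%) and NFIB to NFIC and NFIX. The libraries of TCF4, at 51.7% and 43.2%, lay close to those of TCF12, at 53.2% and 52.4%, without overlapping them. The TCF4 libraries overlapped those of NFIB, at 42.4% and 48.0%. In pEF the order was NFIX, TCF4 (38.8 ± 1.11%), NFIC, TCF12, NFIA and NFIB. There NFIX and TCF4 differed by less than the SD of NFIX, the libraries of TCF4 and NFIC lay close without overlapping, and those of NFIA and NFIB overlapped. The median gene was covered over 21.8% and 22.9% of its window in pgEpiSC and 14.1% and 13.4% in pEF. NFIC and NFIX were thus below the median gene in pgEpiSC and above it in pEF. NFIB lay on either side of it in pEF, at 7.62% and 14.3%, and NFIA did likewise.

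Enrichment told the members apart less than length did. Pooled over the islands of a locus, it was between 1.85-fold and 2.46-fold in pgEpiSC at every member but NFIX, where it was 1.31-fold and 1.30-fold. In pEF it ran from 3.01-fold at NFIA in pEF 1 to 6.25-fold at NFIC in pEF 1. The islands at the 6 loci had a median fold of 1.76 and 1.67 in pgEpiSC and 3.51 and 3.26 in pEF, close to the medians over all islands of those libraries given above. By ChIP reads per kb of island and per 1000000 reads in islands, the density at NFIA was 2.62 in both pgEpiSC libraries and 2.08 and 2.91 in pEF, which overlap. At NFIX it was 1.51 and 2.04 against 3.88 and 3.79, and at NFIC 2.43 and 2.41 against 4.07 and 3.92. The scaling to reads in islands again gives pEF a higher average over all islands.

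Islands of at least 2-fold enrichment left the split of the nuclear factor I family in place and turned the 2 E proteins. Under that filter NFIA had 209.0 kb and 178.6 kb in pgEpiSC against 36.6 kb and 66.2 kb in pEF, and its log2 difference was 1.95. NFIB had 47.4 kb and 74.6 kb against 20.2 kb and 37.8 kb, with a difference of 1.08. NFIC kept 1.60 kb and 1.40 kb in pgEpiSC and all its islands in pEF, with a difference of -3.76. At NFIX nothing was left in pgEpiSC 1, and 1.40 kb in pgEpiSC 4 stood against 56.0 kb and 44.6 kb. TCF4 turned to -0.86, at 101.2 kb and 53.4 kb against 129.8 kb and 138.6 kb, and TCF12 to -0.64, at 43.2 kb and 82.2 kb against 85.8 kb and 101.4 kb. A limit of 2-fold removes more islands from pgEpiSC, where 37.1% and 27.8% reach it, than from pEF, where 84.7% and 85.6% do. With islands above the median fold of their own library, a filter chosen after seeing the data, the differences were 3.28 at NFIA, 2.11 at NFIB, -2.44 at NFIC, -4.81 at NFIX, 0.33 at TCF4 and 0.78 at TCF12. For all genes that filter placed 15.6% toward pgEpiSC and 7.68% toward pEF, and centring each library on its median placed 22.8% and 24.6%. The direction at TCF12 turned only with the 2-fold filter and stayed toward pgEpiSC once centred (0.20). At TCF4 it turned with that filter and also on centring, which keeps all islands (-0.35). The direction of the other 4 members did not change with any setting tried.

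**Figure D4:**
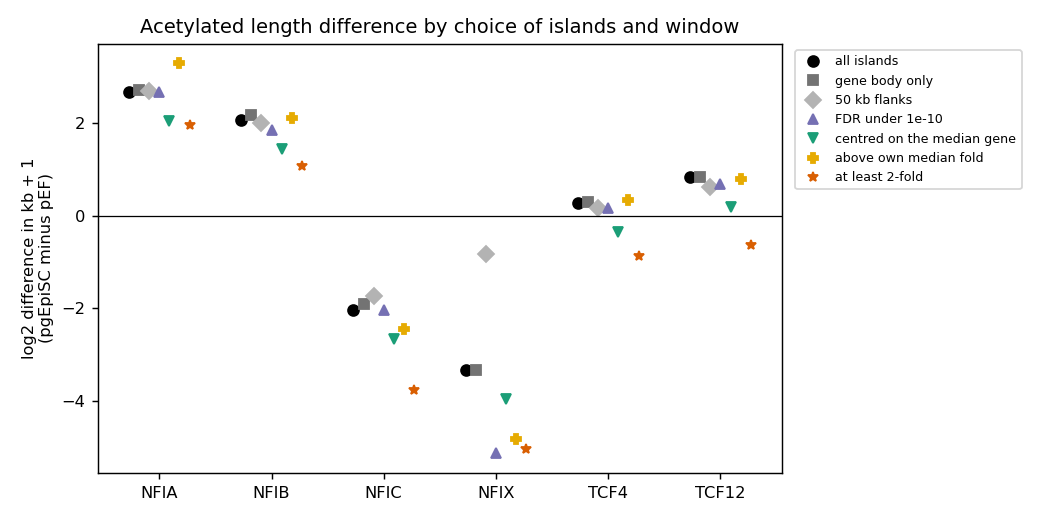
Log2 difference in acetylated length (kb + 1, pgEpiSC minus pEF) of each member under 7 choices of islands, window or scaling. NFIA and NFIB stay above 0 and NFIC and NFIX below it, while TCF4 and TCF12 lie on either side of it depending on the choice.

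The genes with the most similar pattern were found by the Euclidean distance over the percent of the window covered in the 4 libraries, among genes with a window of 0.5 to 2 times the member's length. For NFIA they were EFNA5, an ephrin ligand gene, at 7.07 percentage points and KAT6B, a histone acetyltransferase gene, at 9.87. For NFIB they were PAM and SPATA13 (4.34 and 4.44), for NFIC ZFP91 and STK4 (4.74 and 4.99), and for NFIX FSIP1 and GLT8D2 (3.02 and 5.34). For TCF4 they were NEDD4L, a ubiquitin ligase gene, and CMSS1 (8.28 and 8.48), and for TCF12 JAZF1 and APBB2 (4.63 and 6.14).

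The remaining E protein gene and the inhibitors of E proteins were acetylated in every library. TCF3 had 19.7 kb and 25.2 kb in pgEpiSC against 14.7 kb and 12.5 kb in pEF (limma, adjusted p = 0.0647). Like all 6 members it had higher pooled enrichment in pEF, at 7.72 ± 0.477 against 2.93 ± 0.778. The ID genes encode proteins that pair with E proteins and keep them off DNA. ID1 had 16.7 kb and 20.4 kb against 13.4 kb and 16.5 kb, and ID3 21.6 kb in both pgEpiSC libraries against 20 kb and 21.6 kb. ID2 had 8.20 kb and 8.0 kb against 10.8 kb and 11 kb, and ID4 5.70 kb and 9.30 kb against 11 kb and 14.8 kb. None of the 5 passed in either direction, with a median log2 difference of 0.05 against 0.46 over all genes. With the median gene of each library set to 0, 3 passed toward pEF, namely ID2, ID3 and ID4 (limma, adjusted p = 0.0138, 0.0481 and 0.0220), in a setting that placed 24.6% of all genes toward pEF. With 2-fold islands only ID4 passed, toward pEF, as did 16.5% of all genes (limma, adjusted p = 0.00692). It then had no island in pgEpiSC against 11 kb and 10.8 kb in pEF. With islands above the median fold of their library only TCF3 passed, toward pgEpiSC, as did 15.6% of all genes (limma, adjusted p = 0.0387).

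The tissue-specific partners of E proteins held genes that passed in each direction. Of 34 such helix-loop-helix genes, 6 passed toward pgEpiSC, 8 passed toward pEF and 20 did not pass, among them 8 with no island in any library, while 31.9% and 10.9% of all genes passed in those directions. The median log2 difference was 0.0 against 0.46 over all genes. TWIST1, a mesenchymal factor that dimerizes with E proteins, was without islands in pgEpiSC, with 17.1 kb and 17.0 kb in pEF (limma, adjusted p = 0.00290). In the other direction, TAL2, a factor of blood and midbrain, had 21.3 kb and 29.9 kb, BHLHA15, a factor of secretory cells, 10.2 kb and 13.8 kb, and ASCL2, a factor of trophoblast and intestinal stem cells, 9.54 kb and 9.74 kb, each with no island in pEF. LYL1, which lies at NFIX, was among the 8 higher in pEF and is not independent of it. Counting only 2-fold islands, these numbers were 0 and 13, while 7.06% and 16.5% of all genes were called in those directions. In pgEpiSC, BHLHA15 then kept no island, TAL2 kept 2.40 kb in pgEpiSC 1 only and ASCL2 5.94 kb in pgEpiSC 4 only. TWIST1 kept all its length in pEF.

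Of 6 genes for corepressors and coactivators that E proteins recruit, 4 passed toward pgEpiSC, 1 toward pEF, and EP300 did not pass, with a median log2 difference of 2.0. Over all genes 31.9% and 10.9% passed in those directions. With 2-fold islands 1 of the 6 passed each way and the list median was -0.0038, and with islands above the median fold of their library 1 passed toward pgEpiSC and 0 toward pEF. CBFA2T2 had 99.5 kb and 98.3 kb in pgEpiSC against 8.0 kb and 7.60 kb in pEF, and CBFA2T3 had 71.2 kb and 75.4 kb against 3.20 kb and 1.40 kb (limma, adjusted p = 0.00290 and 0.00695). Both belong to the ETO family of corepressors, whose remaining gene, RUNX1T1, was the one higher in pEF, at 36.6 kb and 36.8 kb against 75.4 kb and 84.6 kb (adjusted p = 0.00891, named after its values were seen). The acetyltransferase genes KAT2B, at 42.1 kb and 35.0 kb against 6.40 kb and 5.60 kb, and CREBBP, at 35.4 kb and 58.8 kb against 15.8 kb and 17.8 kb, were the others. With islands of at least 2-fold enrichment, CBFA2T2 was still higher in pgEpiSC (log2 difference 2.14, adjusted p = 0.0162) and RUNX1T1 in pEF, while CBFA2T3 (0.23), KAT2B (-0.11) and CREBBP (-0.19) no longer passed, and CREBBP also did not pass once values were centred (adjusted p = 0.0789).

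Known target genes of the 2 families are given beside the shares over all genes, 31.9% toward pgEpiSC and 10.9% toward pEF. Of 10 E protein targets, PAX5 and CDH1 passed toward pgEpiSC, GFI1 and EBF1 toward pEF, and 6 did not pass. EBF1, a factor of B cells and mesenchyme, was covered by 17.0 kb and 18.6 kb in pgEpiSC against 46.8 kb and 83.2 kb in pEF (limma, adjusted p = 0.0345), and PAX5, a B cell factor, by 30 kb and 32.4 kb against 5.40 kb and 4.40 kb. Of 12 nuclear factor I targets, 5 passed toward pgEpiSC, 2 toward pEF, and 5 did not pass. SLC1A3, a glial glutamate transporter gene, had 87.6 kb and 84.8 kb in pgEpiSC against 5.40 kb and 10.4 kb in pEF (adjusted p = 0.0112), and DSPP, a dentin matrix gene, 85.6 kb and 85.8 kb against 6.27 kb and 14.3 kb. FABP7, a radial glia gene, was without islands in pgEpiSC, with 4.0 kb and 7.0 kb in pEF, and COL1A2, a type I collagen gene that is also a fibroblast marker, had none against 50.1 kb and 48.7 kb. With all islands the medians of these 2 lists, 0.49 and 0.40, lay near that of all genes. With 2-fold islands they were -1.28 and -0.74, against -0.28 over all genes. Counting only 2-fold islands, PAX5 turned from a log2 difference of 2.45 to -1.76 (limma, adjusted p = 0.128). EBF1 went from -1.76 to -4.50, SLC1A3 from 3.35 to 2.24 and GFI1 from -1.96 to -1.04, each in the same direction but no longer past the threshold (adjusted p = 0.0995, 0.0932 and 0.453).

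The WNT effectors that share the TCF name were acetylated in every library. TCF7L2 had 172 kb and 155 kb in pgEpiSC against 116 kb and 142 kb in pEF and did not pass, as for TCF7 and LEF1. TCF7L1, a repressor of WNT targets in pluripotent cells, was the 1 of 4 that was higher in pgEpiSC, at 22.6 kb in both libraries against 6.40 kb and 10 kb (limma, adjusted p = 0.0300), and 0 were higher in pEF. That call ended once values were centred (adjusted p = 0.0802) and with 2-fold islands (log2 difference 0.12, adjusted p = 0.915), where TCF7 passed toward pEF (-1.68, adjusted p = 0.00806).

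**Figure D5:**
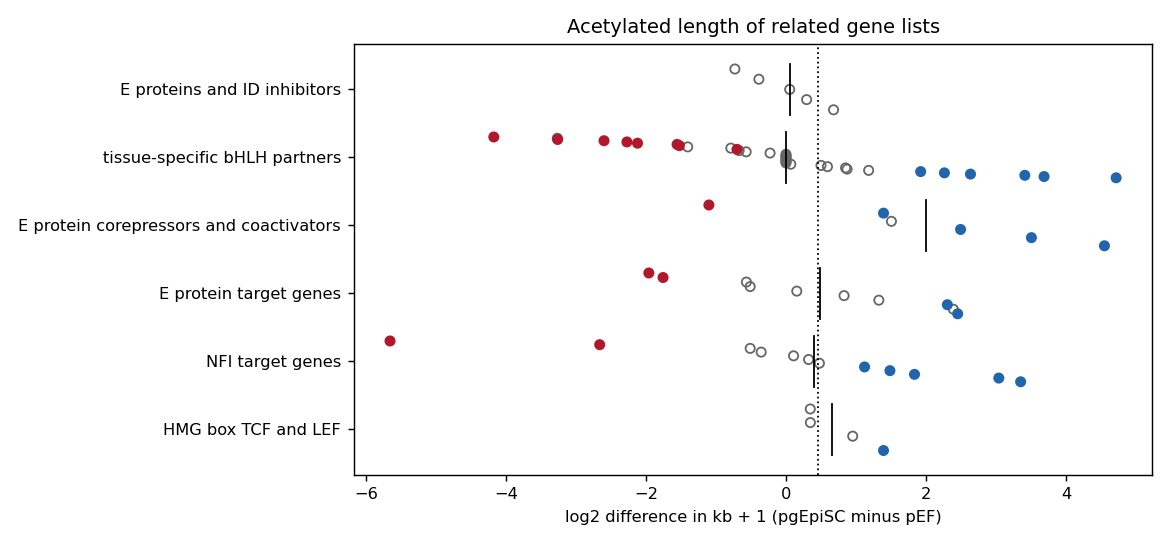
Log2 difference in acetylated length for each gene of 6 related lists, filled blue where higher in pgEpiSC and red where higher in pEF by limma at an adjusted p of 0.05, open where not passed. Short lines are list medians and the dotted line is the median of all genes, 0.46. The corepressor and coactivator list has its median at 2.0 here, with all islands, and at -0.0038 with 2-fold islands.

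Markers of other cell types were measured beside these lists. The neural markers SOX1 and OLIG2, the muscle marker MYOD1 and the endothelial marker KDR had no island in any library. None of the 4 neural and 4 muscle markers passed in either direction in the fit over all islands. With 2-fold islands PAX6 and MYF5 passed toward pEF (limma, adjusted p = 0.0193 and 0.0169), and once centred 2 neural and 1 muscle marker did. Among 4 blood and 3 endothelial markers 1 (LCP1) and 2 (CDH5 and PECAM1) were higher in pgEpiSC. With 2-fold islands LCP1 still passed, CDH5 passed toward pEF (log2 difference -1.56, adjusted p = 0.0411) and PECAM1 was at -1.99 (adjusted p = 0.433). The gene PTPRC, which defines blood cells, had 37.4 kb and 15 kb in the pgEpiSC libraries against 0 kb and 6.0 kb. Summed over each list, blood markers had 103 to 117 kb in pgEpiSC against 22.6 to 32.4 kb in pEF, and endothelial markers 43.3 to 45.1 kb against 12 to 17.8 kb. Neural markers had 32.5 to 37.0 kb and 32.9 to 46.1 kb, and muscle markers 22.3 to 28.3 kb and 30.4 to 40.8 kb. Their part in the values of the 6 members was not tested.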

How the data were processed

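H3K27ac ChIP-seq was analysed from 4 deposited island lists, 1 per H3K27ac library. Per the submitters' processing notes BWA 0.7.15, SAMtools 0.1.19 and SICER 1.1 were used. For the genome build, mapping filters and duplicate removal, nothing is stated in the sources used here, and no genome sequence, promoter or protein sequence was used. The deposited count columns hold the ChIP and input reads of each island, the deposited p-value columns its p and FDR, and the deposited fold column the ratio of ChIP to scaled input reads. Gene spans came from RefSeq's Sscrofa11.1 table and carry no strand. On 19 of 19 chromosomes the ends of genes were under islands more often than points shifted by 20 kb, and 191 scaffold names began with AEMK.

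Acetylated length on the log2(kb + 1) scale was tested over 16298 genes with limma 3.58.1 (intensity trend, 2 residual degrees of freedom). ChIP reads in 20498 merged regions called in all 4 libraries (overlap of at least 1 bp) were fitted by edgeR 4.0.16 (quasi-likelihood, TMM), with DESeq2 1.42.0 as an alternative. Benjamini-Hochberg adjustment ran over all genes or regions, with a threshold of 0.05, two-sided. Tested on simulated data with a log2 change of 2, limma recovered 100% of 200 changed genes among 16298 and edgeR 83% of 200 changed regions among 20498. False calls numbered 10 and 9. For limma all genes had a single noise level, taken from the pgEpiSC pair, and the changed genes were drawn from those with longer coverage. Its recovery therefore does not carry over to genes or libraries with more spread. Members and lists were chosen with earlier results of these data known. Named genes were the members, TCF3 and ID1 to ID4, up to 4 per list with the largest difference past the threshold, markers, neighbours, and the 2 most similar genes per member. Of 13 listed nuclear factor I targets 12 matched the table. The planned motif search and protein comparison were not run. R 4.3.3, Python 3.11.15, numpy 2.4.6, pandas 2.3.3 and matplotlib 3.10.9 were used.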

Additional observations from a re-analysis of the deposited data

How the results depend on the processing

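No paired analysis was possible because the types share 1 replicate number. The direction of NFIA, NFIB, NFIC and NFIX was kept under every alternative run. With 2-fold islands their log2 differences were 1.95, 1.08, -3.76 and -5.04, and those of TCF4 and TCF12 turned to -0.86 and -0.64. Centred on the median gene, which lowered every value by 0.63, the 6 were 2.05, 1.44, -2.65, -3.96, -0.35 and 0.20. Islands above their library's median fold, chosen after seeing the data, gave 3.28 at NFIA, -2.44 at NFIC and -4.81 at NFIX. Islands at an FDR under 1e-10 gave -5.13 at NFIX and 0.68 at TCF12, 50 kb flanks -1.74 at NFIC, -0.83 at NFIX and 0.63 at TCF12, and a pseudocount of 0.2 kb -3.53 at NFIX. Leaving out each library gave 2.23 to 3.13 at NFIA, 1.64 to 2.51 at NFIB, -2.19 to -1.85 at NFIC, -3.52 to -3.15 at NFIX, 0.15 to 0.41 at TCF4 and 0.70 to 0.96 at TCF12.

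Over all genes, 5196 passed toward pgEpiSC and 1773 toward pEF. With 2-fold islands these were 1150 and 2692, with islands above their library's median fold 2537 in pgEpiSC, and centred 3853 in pEF. Leaving out each library gave 1684 to 2188 and 548 to 829, where the lone library of a type is assumed to vary like the other type. Regions called in all 4 libraries numbered 4649 and 4790 in the 2 directions, or 2340 and 2291 with 2-fold enrichment in every library. They were 1882 to 5130 and 1993 to 4974 on leaving out each library, and the low values came without pgEpiSC 1 or pgEpiSC 4.

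For the lists, counts are given for pgEpiSC and then pEF. With 2-fold islands they were 0 and 1 for TCF3 and the ID genes, 0 and 13 for the partners, 1 and 1 for the cofactors, 2 and 1 for E protein targets, 1 and 4 for nuclear factor I targets and 0 and 1 for the WNT effectors. Centred, 3 were higher in pEF for TCF3 and the ID genes, 3 in pgEpiSC for nuclear factor I targets and 0 in pgEpiSC for the WNT effectors. Leaving out each library gave 0 to 0 in both directions for TCF3 and the ID genes, 5 to 6 and 2 to 6 for the partners, 2 to 3 and 0 to 1 for the cofactors, 0 to 4 and 0 to 2 for E protein targets, 0 to 2 and 1 to 2 for nuclear factor I targets, and 0 to 1 and 0 to 0 for the WNT effectors. The cause of these changes was not tested. Only reads inside islands are listed, so total depth is unknown, and a stretch without an island means only that none was called there.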
